A study of Mus musculus with 4 samples.

Results

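The 8 genes described here, Wt1, Msln, Upk3b, Upk1b, Lrrn4, Muc16, Bnc1 and Rspo1, are markers of the pleural mesothelium and were picked out of the count table by gene name. They are 8 of the 45706 genes counted in RNA-seq of left lung lobes from mouse embryos of the C57BL/6 strain at embryonic day 17 (E17), and each of the 8 names matched a single gene. The study compared 2 wild-type lungs (Myh10+/+) with 2 lungs homozygous for the missense allele Myh10 L458R (Myh10-/-). This allele arose in a chemical mutagenesis screen and was carried in every cell of the embryo, no embryo was treated, and no sorting or Cre driver was used. Myh10 encodes the heavy chain of non-muscle myosin II-B, a motor that contracts actin filaments. Because RNA came from whole lobes, fewer mesothelial cells and less RNA per mesothelial cell cannot be told apart in these data.

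The mesothelium is a single sheet of flattened cells that covers the lung surface and the other organs of the body cavities. It begins as an epithelium derived from mesoderm, carries keratins, microvilli and a mucin coat, and secretes a lubricating fluid. In the embryonic lung it also signals to the tissue beneath it and sends cells into the mesenchyme, a process for which the transcription factor WT1 is best known. The other markers fall into groups by role. BNC1 (basonuclin 1) is a zinc finger protein, and RSPO1 is a secreted R-spondin that strengthens Wnt signalling. MSLN (mesothelin) is a surface glycoprotein tethered by a lipid anchor, and MUC16 is a large membrane mucin to which mesothelin binds. UPK3B and UPK1B are uroplakins, membrane proteins named after the bladder lining, UPK1B being a tetraspanin. LRRN4 is a membrane protein with leucine-rich repeats. The same genes also mark the mesothelium of other organs, among them the epicardium on the heart.

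All 8 genes were detected in every lung. Of them, only Msln differed between genotypes in edgeR's quasi-likelihood test with Benjamini-Hochberg adjustment: its level fell to 0.69 of that in Myh10+/+ lungs (95% interval 0.60 to 0.80). The fall of Msln did not pass in DESeq2 (adjusted p = 0.132) or in edgeR with robust estimation of the spread (adjusted p = 0.127). The other 7 did not pass an adjusted p of 0.05, and taken as a sum their level in Myh10-/- lungs was 0.95 of that in Myh10+/+ lungs. Over all 18763 genes tested 1.64% passed the same threshold in either direction and 1.34% were lower, and 1 of 8 is too few to set against these shares.

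Positions are those of the GRCm38 assembly in the GENCODE M21 annotation. On chromosome 2 lie both Wt1 (ENSMUSG00000016458, 105126529 to 105173616, plus strand) and Lrrn4 (ENSMUSG00000043110, 132868305 to 132880891, minus strand). Msln (ENSMUSG00000063011) occupies 25748613 to 25754378 of chromosome 17 on the minus strand. Upk3b (ENSMUSG00000042985) is found at 136038496 to 136046487 of chromosome 5, plus strand, and Upk1b (ENSMUSG00000049436) at 38773184 to 38800328 of chromosome 16, minus strand. Bnc1 (ENSMUSG00000025105) covers 81966672 to 81992292 of chromosome 7, minus strand, and Rspo1 (ENSMUSG00000028871) covers 124986430 to 125009099 of chromosome 4, plus strand. The row of Muc16 carries an older identifier, ENSMUSG00000032134. The transcript it names, ENSMUST00000034653, spans 18495455 to 18512885 of chromosome 9, minus strand, with 9 exons of 1035 bases in all. The gene listed as Muc16 in the annotation, ENSMUSG00000109564, runs from 18495455 to 18674530 with 26350 exon bases. Muc16 counts are therefore given as those of the row, which may hold only part of the gene.

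Reads could be assigned to the markers with little ambiguity. Annotated transcripts were cut into every stretch of 75 bases, as long as a read: 1.43% of those in Msln and 0.547% of those in Bnc1 also occurred in another gene, and none of those in Wt1, Upk3b, Upk1b, Lrrn4 and Rspo1 did. Muc16 was not searched in this way. Exons of Bnc1 share 98 bases with a pseudogene on the opposite strand, 4833418N17Rik, which had 0 to 2 counts per lung. The strand setting of the counting is not given in the sources used here. Counts of genes that overlap a gene on the opposite strand are therefore uncertain, which among the further genes named here holds for Nkain4, Ildr2, Rarres2, Krt7, Krt8, Mslnl, Rspo3, Axin2, Lef1, Ctnnb1, Tbx18, Zeb1, Zeb2, Myh6, Myl4, Nppa, Nphs1, Pdgfra and Xist. The antisense gene Wt1os starts 18 bases from Wt1 without sharing an exon base, and had 15 and 13 counts in Myh10+/+ lungs and 26 and 21 counts in Myh10-/- lungs.

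Among the 8 markers, promoters were found in the RefSeq table (GRCm38.p6) for Upk3b, Lrrn4, Muc16, Bnc1 and Rspo1. That of Muc16 (chr9:18674604-18674853, minus strand) lies before the long annotated gene. It is not the sequence before the short transcript named in the counted row, which starts at 18512885. The 250 bases before the start site differed widely in CG dinucleotides, the sites at which mammalian DNA is methylated: 39 in Bnc1, 22 in Rspo1, 5 in Lrrn4, 2 in Upk3b and 0 in Muc16, against a median of 6 over 32851 promoters of the same length. Bnc1 and Upk3b are printed because they stand near opposite ends of this range and belong to a transcription factor and a surface protein of the same cell layer. Capitals mark CG dinucleotides, and each run reads 5′ to 3′ on the strand of the gene, from chr7:81992300-81992549 (minus strand) for Bnc1 and chr5:136038246-136038495 (plus strand) for Upk3b.
Bnc1: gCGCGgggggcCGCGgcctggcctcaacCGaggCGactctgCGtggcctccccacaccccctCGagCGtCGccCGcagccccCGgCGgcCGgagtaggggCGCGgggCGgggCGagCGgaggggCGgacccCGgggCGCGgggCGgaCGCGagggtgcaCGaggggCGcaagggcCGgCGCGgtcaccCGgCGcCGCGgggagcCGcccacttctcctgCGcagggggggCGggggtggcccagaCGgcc
Upk3b: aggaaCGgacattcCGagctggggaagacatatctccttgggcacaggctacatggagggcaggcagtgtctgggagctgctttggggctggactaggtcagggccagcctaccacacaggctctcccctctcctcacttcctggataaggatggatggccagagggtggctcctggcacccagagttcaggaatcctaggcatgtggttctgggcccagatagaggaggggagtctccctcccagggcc
The Bnc1 run held more CG dinucleotides than 98.4% of all promoters and the Upk3b run more than 18.8%. Neither the WT1 element GCGTGGGAG nor the EGR1 element GCGGGGGCG, which WT1 also binds, nor the TATA box TATAAA was found on either strand in any of the 5 runs. The 3 occur in 0.405%, 2.57% and 12.4% of all promoters of this length, and none of the 3 contains another.

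The lungs had 19116971 to 32055306 reads counted on genes, the 2 Myh10+/+ lungs being the shallower ones. Myh10 itself did not differ in level (log2 fold change 0.06, SE 0.06, adjusted p = 0.662), and a missense allele need not alter it. The female-specific RNA Xist was abundant in Myh10+/+ lung 1 (3916 CPM) and Myh10-/- lung 2 (4457 CPM), and the Y-linked gene Ddx3y in Myh10+/+ lung 2 (182 CPM) and Myh10-/- lung 1 (198 CPM), so each genotype had 1 lung of either sex. The lung transcription factor Nkx2-1 was at 434 to 455 CPM in all 4 lungs. The 8 genes also mark cells of other tissues. The podocyte gene Nphs1 had 1 read in all 4 lungs together. Of the other uroplakin genes of the bladder lining, Upk1a and Upk2 were at 2.66 and 0.674 RPKM (CPM per kilobase of exons) as means of the Myh10+/+ lungs, but Upk3a was at 9.69 RPKM. CPM here are counts scaled to a common library size, with the TMM factors of edgeR.

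Per exon length, Msln was the most abundant marker, at 70.4 RPKM as a mean of the 2 Myh10+/+ lungs, followed by Upk3b at 26.6, Upk1b at 12.2, Rspo1 at 7.82 and Lrrn4 at 3.34 RPKM. Each of these 5 stood apart from its neighbours in the order, with no overlap between lungs. Muc16, on the exons of its short transcript, was at 1.12 RPKM, Wt1 at 1.05 and Bnc1 at 0.91 RPKM, with Myh10+/+ lungs at 0.97 and 1.27, 1.04 and 1.05, and 1.01 and 0.81 RPKM in the same order. The range of Muc16 overlapped that of both Wt1 and Bnc1, so the order of these 3 is not fixed by 2 lungs. In Myh10-/- lungs the order of the first 5 was the same. Mesothelin and the uroplakins were thus the most abundant per exon length, and the 2 transcription factors were among the rarest. The value of Muc16 rests on 1035 exon bases and would be lower if its row was counted over more of the gene.

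**Figure D1:**
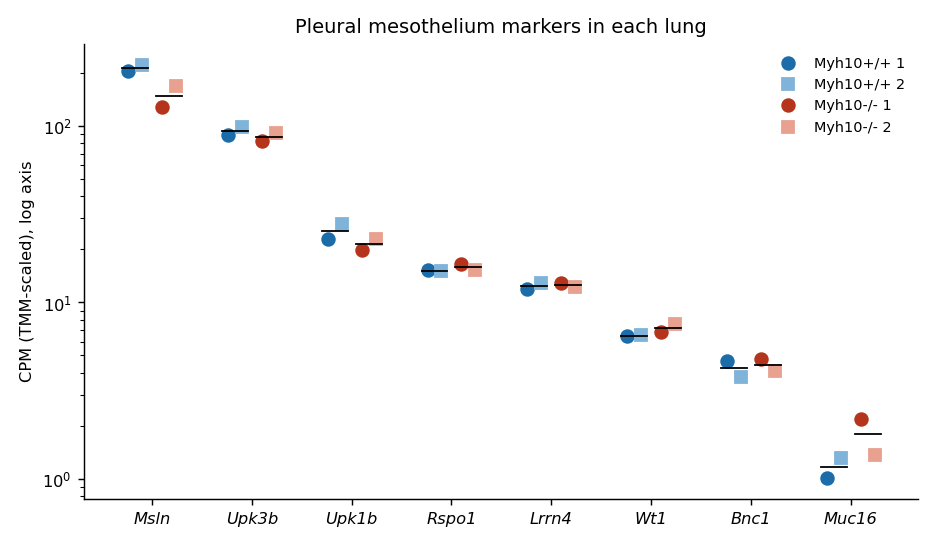
Level of each marker in each lung as TMM-scaled CPM on a log axis, ordered by the mean of the Myh10+/+ lungs. Blue symbols are Myh10+/+ and red symbols Myh10-/- lungs, circles are replicate 1 and squares replicate 2, and black lines are means of 2 lungs. Levels should be compared between lungs within a gene, since CPM do not account for gene length. Both Myh10-/- lungs lie below both Myh10+/+ lungs for Msln (129 and 169 against 207 and 224 CPM), and most other markers nearly coincide.

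Wt1, the zinc finger factor that drives mesothelial development, had 6.46 and 6.51 CPM in Myh10+/+ lungs and 6.79 and 7.58 CPM in Myh10-/- lungs, from 124 to 244 reads per lung. Both mutant lungs were above both wild-type lungs, by a small margin. The log2 fold change was 0.15 (SE 0.13, 95% interval -0.14 to 0.44, adjusted p = 0.615) and did not pass the test. Over all tested genes, 23.9% had both Myh10-/- lungs above both Myh10+/+ lungs, so such an order of 4 lungs is common.

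Bnc1, the other transcription factor of the group, had 4.67 and 3.78 CPM in Myh10+/+ lungs and 4.78 and 4.10 CPM in Myh10-/- lungs. The genotypes overlapped. Its log2 fold change of 0.06 (SE 0.18) had a 95% interval from -0.33 to 0.45 (adjusted p = 0.910), from 72 to 133 reads per lung, so a moderate change in either direction was not detectable at this depth. Rspo1, the secreted ligand, had 15.2 and 15.1 CPM in Myh10+/+ lungs against 16.6 and 15.3 CPM in Myh10-/- lungs. The lowest Myh10-/- lung was hardly above the highest Myh10+/+ lung, and the log2 fold change of 0.07 (SE 0.09, interval -0.12 to 0.26) did not pass (adjusted p = 0.735).

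Msln, the mesothelin gene, had 207 and 224 CPM in Myh10+/+ lungs and 129 and 169 CPM in Myh10-/- lungs, from 3586 to 5446 reads per lung. The genotypes did not overlap, and Myh10-/- lung 1 was the lower of the mutant lungs. Its level fell by 0.53 on the log2 scale (SE 0.09, 95% interval -0.74 to -0.33, adjusted p = 0.0196), and only 3.40% of all tested genes had a lower log2 fold change. Each of the 4 comparisons of a single Myh10-/- lung with a single Myh10+/+ lung was negative, between -0.80 and -0.29 on the log2 scale. The same fit without Myh10-/- lung 1 gave -0.35. The difference was not called by DESeq2 (adjusted p = 0.132, over the 10032 genes to which it gave one) nor by edgeR with robust estimation of the spread (adjusted p = 0.127), both of which gave the same log2 fold change of -0.53.

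Muc16, the mucin partner of mesothelin, had the opposite sign. It stood at 1.004 and 1.31 CPM in Myh10+/+ lungs and at 2.19 and 1.37 CPM in Myh10-/- lungs, with only 23, 25, 61 and 44 reads. Myh10-/- lung 1 was well above the rest, whereas lung 2 was barely higher than Myh10+/+ lung 2. The log2 fold change of 0.62 was the highest of the 8 genes but had an SE of 0.32 and a 95% interval from -0.08 to 1.31 (adjusted p = 0.360).

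Upk3b, the uroplakin most often used to mark mesothelium, had 89.0 and 99.1 CPM in Myh10+/+ lungs and 82.5 and 91.9 CPM in Myh10-/- lungs. The genotypes overlapped, and the log2 fold change was -0.11 (SE 0.07, interval -0.26 to 0.05, adjusted p = 0.497). With 1887 to 2959 reads per lung, it had the narrowest interval of the 8. Upk1b, the tetraspanin uroplakin, had 23.0 and 27.7 CPM in Myh10+/+ lungs and 19.8 and 22.9 CPM in Myh10-/- lungs. Both mutant lungs were below both wild-type lungs, the nearest 2 lungs being almost equal, a pattern shared by 24.3% of all tested genes. The log2 fold change of Upk1b was -0.24 (SE 0.10, interval -0.46 to -0.03) and did not pass after adjustment (adjusted p = 0.244). It rested on single lungs: the value was -0.35 without Myh10-/- lung 2 (adjusted p = 0.0234) and -0.37 without Myh10+/+ lung 1 (adjusted p = 0.0688), but -0.11 without Myh10+/+ lung 2 (adjusted p = 0.854) and -0.14 without Myh10-/- lung 1 (adjusted p = 0.720).

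Lrrn4, the leucine-rich repeat protein, was the marker with the smallest difference. It had 11.96 and 12.9 CPM in Myh10+/+ lungs and 12.8 and 12.3 CPM in Myh10-/- lungs. The mutant lungs lay inside the range of the wild-type lungs, with a log2 fold change of 0.02 (SE 0.10, interval -0.19 to 0.23, adjusted p = 0.948).

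Over the 8 markers, 5 log2 fold changes were positive and 3 negative, with a median of 0.04 beside 0.0018 over all tested genes. Without Myh10-/- lung 1 this median was -0.018. Both Myh10-/- lungs were above both Myh10+/+ lungs for Wt1, Muc16 and Rspo1, both were below for Msln and Upk1b, and the genotypes overlapped for Upk3b, Lrrn4 and Bnc1. Over all tested genes, 23.9% had both Myh10-/- lungs above and 24.3% had both below, so such orders are common and 8 markers are too few to set against these shares. Before adjustment 2 of the 8, Msln and Upk1b, had a p under 0.05, beside 16.5% of all tested genes.

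**Figure D2:**
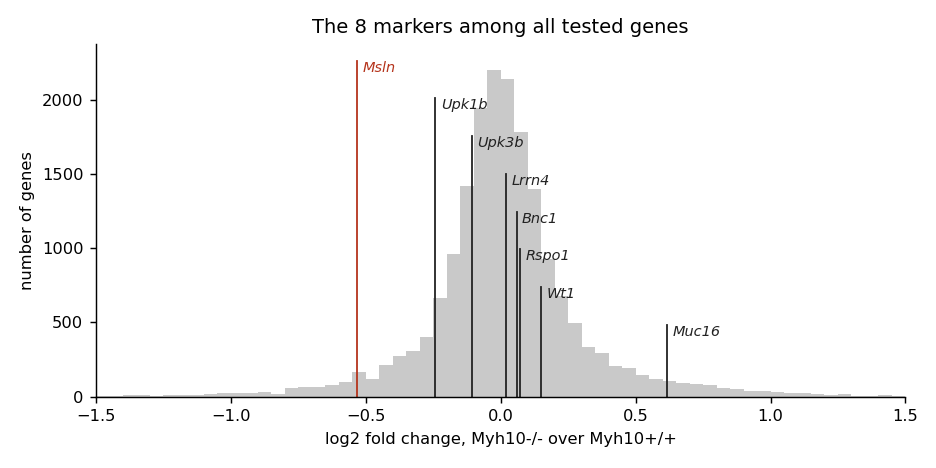
Histogram of log2 fold changes (Myh10-/- over Myh10+/+) of all 18763 tested genes, with lines at the 8 markers. The axis ends at 1.5 on either side of 0 and leaves out 65 genes. Msln, drawn in red, is the only marker past an adjusted p of 0.05 and lies at -0.53, while Muc16 lies at 0.62 and the other 6 between -0.24 and 0.15.

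Since Msln carried most of the reads of the group, it set the sum. The 8 genes together had 359 and 391 CPM in Myh10+/+ lungs and 274 and 325 CPM in Myh10-/- lungs, a ratio of the genotype means of 0.80. Without Msln the sums were 151 and 166 CPM against 146 and 155 CPM, which overlapped. Msln made up 57.8% and 57.4% of the summed CPM in Myh10+/+ lungs and 47.0% and 52.1% in Myh10-/- lungs, whereas the share of Upk3b was 24.8% and 25.4% against 30.1% and 28.3%. The log2 ratio of Msln to the other 7 was 0.45 and 0.43 in Myh10+/+ lungs and -0.18 and 0.12 in Myh10-/- lungs. Msln was singled out for these ratios after its values were seen, and they are given as a description without a test.

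A list of 12 further genes enriched in mesothelium was examined next. Of them 2 fell, C3, the central complement component, and Igfbp6, a secreted binding protein of insulin-like growth factors, and 10 did not pass. C3 had 11.2 and 11.0 CPM in Myh10+/+ lungs and 5.39 and 6.68 CPM in Myh10-/- lungs, with a log2 fold change of -0.87 (SE 0.13, adjusted p = 0.00984). Igfbp6 had 41.3 and 45.5 CPM against 22.6 and 31.4 CPM, a log2 fold change of -0.68 (SE 0.12, adjusted p = 0.0201). Neither is particular to mesothelium, since fibroblasts also make both. In DESeq2 Igfbp6 did not pass (adjusted p = 0.0898) and C3 received no adjusted p. The others were Gpm6a, Calb2 (calretinin), Nkain4, Cldn15, Ildr2, Aldh1a2 (a retinoic acid synthase), Lrrn4cl, Pkhd1l1, Efemp1 and Rarres2. The list's log2 fold changes had a median of -0.05, 6 were positive and 6 negative, and 3 of 12 had an unadjusted p under 0.05. The shares of all tested genes were 1.64% at an adjusted and 16.5% at an unadjusted p under 0.05. The summed CPM of the list was 255 and 271 in Myh10+/+ lungs and 232 and 242 in Myh10-/- lungs.

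Genes that mesothelium shares with the lung epithelium were mostly lower. Of 6 such genes 4 fell: Krt8 (log2 fold change -0.33, SE 0.05, adjusted p = 0.00984), Krt19 (-0.35, SE 0.06, adjusted p = 0.0196), Krt7 (-0.32, SE 0.06, adjusted p = 0.0208) and Pdpn (-0.37, SE 0.07, adjusted p = 0.0293). The first 3 encode keratins of simple epithelia, and Pdpn encodes podoplanin, a surface protein of mesothelium, lymphatic vessels and alveolar type 1 cells. Krt18, a partner of keratin 8, had a log2 fold change of -0.24 (adjusted p = 0.0691), and Fgf9, a growth factor that mesothelium and early epithelium secrete, one of 0.16 (adjusted p = 0.549). The list's median was -0.32, and 1.64% of all tested genes had an adjusted p under 0.05. For Krt7 and Krt8 a few exon bases are shared with genes on the opposite strand (77 and 101 bases).

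**Figure D3:**
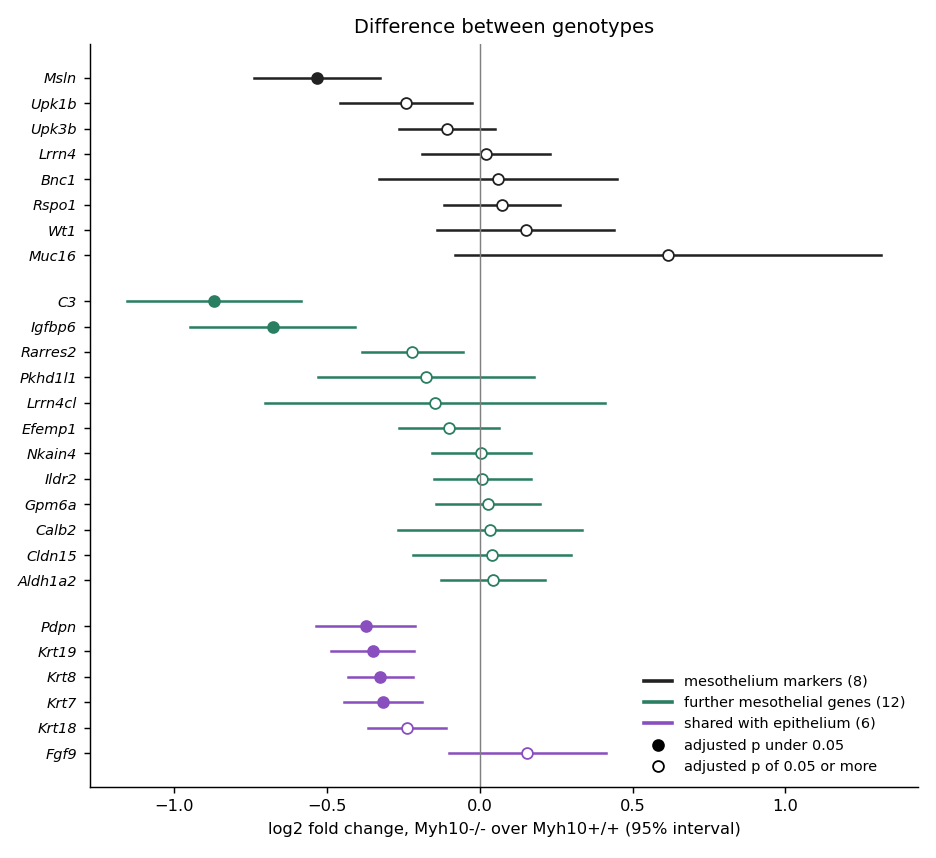
Log2 fold change of each gene (Myh10-/- over Myh10+/+) with its 95% interval from edgeR, for the 8 markers, the 12 further mesothelial genes and the 6 genes shared with epithelium. Filled points are past an adjusted p of 0.05 over all tested genes. Most mesothelial genes straddle 0, with Msln, C3 and Igfbp6 as the filled exceptions, and 4 of the 6 shared genes are filled and negative.

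Other cell types were therefore set beside Msln, each as the summed CPM of its markers in percent of the Myh10+/+ mean. Msln was at 59.7% and 78.4% in Myh10-/- lungs 1 and 2. The lung epithelium list (Epcam, Cdh1, Nkx2-1 and the surfactant gene Sftpc) was at 71.5% and 84.4%, a sum made up mostly of Sftpc, which had 5815 and 5630 CPM in Myh10+/+ lungs and 3876 and 4750 CPM in Myh10-/- lungs and did not pass (adjusted p = 0.173). In the same list Cdh1, the epithelial cadherin, fell (log2 fold change -0.30, adjusted p = 0.0178), while Epcam (-0.04, adjusted p = 0.738) and Nkx2-1 (0.02, adjusted p = 0.881) did not pass. The airway list (Foxj1, Scgb1a1 and Scgb3a2) was at 69.3% and 81.5%, a sum made up mostly of Scgb3a2, which did not pass (adjusted p = 0.147). Foxj1 did not pass either (adjusted p = 0.121), while Scgb1a1, the club cell secretoglobin, was lower by the test (log2 fold change -1.36, adjusted p = 0.00897). The leukocyte list (Ptprc and Lyz2) was at 65.9% and 82.9%. This sum was made up mostly of the lysozyme gene Lyz2, with 186 and 173 CPM in Myh10+/+ lungs against 14.4 and 13.1 CPM for Ptprc. Lyz2 was lower by the test (log2 fold change -0.44, adjusted p = 0.0293), while Ptprc did not pass (-0.27, adjusted p = 0.224). Each of these sums was lower in Myh10-/- lung 1 than in lung 2, as Msln was, though Foxj1, Epcam and Nkx2-1 were not.

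The other 7 markers were at 91.6% and 97.9% of the Myh10+/+ mean in the same lungs. The mesenchyme list (Tbx4, Col1a1 and Pdgfra) was at 101% and 98.6% with 0 of 3 genes past the threshold in edgeR and 0 with an unadjusted p under 0.05. The endothelium list (Pecam1, Cdh5 and Kdr) was at 94.1% and 90.4%, with 0 of 3 past it and 2 with an unadjusted p under 0.05. Liver genes Alb, Afp and Apoa1 summed to 3.70 to 8.99 CPM per lung and overlapped between genotypes. Whether the level of Msln moved with the share of other cell types in the lobe was not tested.

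**Figure D4:**
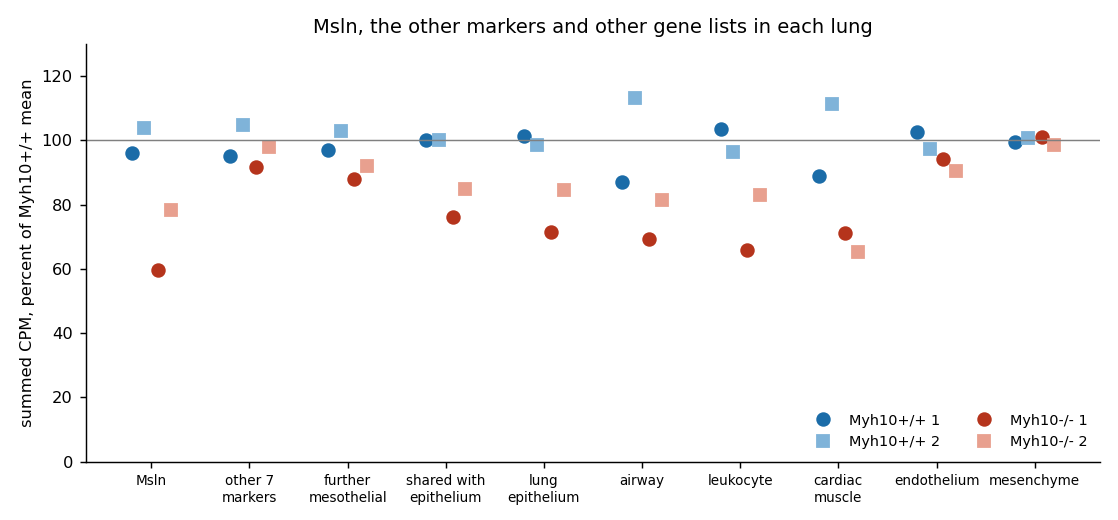
Summed CPM of Msln, of the other 7 markers and of 8 gene lists in each lung, in percent of the mean of the Myh10+/+ lungs (line at 100). Symbols are as in the plot of levels by lung. In Myh10-/- lungs Msln (59.7% and 78.4%) lies below the leukocyte (65.9% and 82.9%), airway (69.3% and 81.5%), lung epithelium (71.5% and 84.4%) and shared (76.0% and 84.8%) lists. The other 7 markers (91.6% and 97.9%) lie above those lists. So do the further mesothelial (88.0% and 92.0%), endothelium (94.1% and 90.4%) and mesenchyme (101% and 98.6%) lists. The cardiac muscle list (71.2% and 65.2%) lies above Msln in Myh10-/- lung 1 and below it in lung 2.

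Because the epicardium carries several of the same markers, heart muscle genes were examined too. Of 8 cardiac muscle genes 7 were tested and 5 fell: Myh6 (log2 fold change -0.73, adjusted p = 0.0117), Myl7 (-0.65, adjusted p = 0.0127), Ryr2 (-0.44, adjusted p = 0.0155), Tnnt2 (-0.57, adjusted p = 0.0275) and Myl4 (-0.59, adjusted p = 0.0402). They encode sarcomere proteins and, in Ryr2, a calcium release channel. Nppa had 1 or 2 reads per lung and was not tested. An adjusted p under 0.05 was reached by 1.64% of all tested genes. The summed CPM of the list was 249 and 312 in Myh10+/+ lungs and 200 and 183 in Myh10-/- lungs, so in contrast to Msln the lower mutant lung was lung 2. Without Myh10+/+ lung 2 only 2 of these genes were past the threshold. Pulmonary veins of the mouse carry a sleeve of heart muscle, and whether heart tissue or its epicardium contributed to the marker levels was not tested.

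Relatives of the markers by gene family were compared next. Of 14 such genes 1 fell, Muc1, a membrane mucin of the lung epithelium, with 242 and 226 CPM in Myh10+/+ lungs and 178 and 184 CPM in Myh10-/- lungs (log2 fold change -0.37, SE 0.05, adjusted p = 0.00766). The neuronal leucine-rich repeat gene Lrrn1 had 18.8 and 18.6 CPM against 19.1 and 20.8 CPM and did not pass (adjusted p = 0.597). Among the others, 3 are named after their values were seen. Mslnl, the mesothelin-like gene, lies tail to tail with Msln, 282 bases apart, and had 12.2 and 14.0 CPM against 8.66 and 11.8 CPM (log2 fold change -0.34, SE 0.14, adjusted p = 0.237). Both Myh10-/- lungs were below both Myh10+/+ lungs, with lung 1 again the lower, but the difference did not pass. Rspo2 and Rspo3, which encode R-spondins, had 8.03 and 6.46 against 10.03 and 9.60 CPM (log2 fold change 0.43, adjusted p = 0.123) and 0.960 and 0.788 against 1.44 and 2.05 CPM (0.99, adjusted p = 0.140). The median of the 14 was 0.07, and 4 had an unadjusted p under 0.05, beside 16.5% of all tested genes.

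R-spondins bind LGR receptors and keep the ligases RNF43 and ZNRF3 from removing Wnt receptors. Of 10 genes of this pathway (Lgr4, Lgr5, Lgr6, Rnf43, Znrf3, Lrp5, Lrp6, Ctnnb1 and the Wnt target genes Axin2 and Lef1) 0 passed in edgeR, 0 had an unadjusted p under 0.05, and 0 of the 7 to which DESeq2 gave an adjusted p passed there. Their log2 fold changes lay between -0.10 and 0.07. The most abundant by CPM, Ctnnb1, which encodes beta-catenin, had a log2 fold change of -0.07 (95% interval -0.26 to 0.12) and Lrp6, a Wnt co-receptor, one of 0.05 (interval -0.06 to 0.15). The least certain gene was the receptor Lgr5 (interval -0.49 to 0.63).

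Proteins that bind WT1 were described by a list of 4 genes, of which 0 passed in edgeR, 1 had an unadjusted p under 0.05 and 0 passed in DESeq2. Basp1, a corepressor of WT1, had 37.4 and 37.5 CPM in Myh10+/+ lungs and 42.3 and 42.8 CPM in Myh10-/- lungs (log2 fold change 0.18, SE 0.07, adjusted p = 0.229). Wtap (0.02, adjusted p = 0.917), Wtip (-0.02, adjusted p = 0.948) and Cited2 (-0.16, adjusted p = 0.348) did not pass either. Of 6 transcription factors of the epicardium and of mesenchyme that descends from mesothelium (Tcf21, Tbx18, Snai1, Snai2, Zeb1 and Zeb2) 0 passed in edgeR, where 4 had an unadjusted p under 0.05, and 0 of the 5 with an adjusted p passed in DESeq2. Zeb2 had 406 and 374 CPM against 473 and 429 CPM (log2 fold change 0.21, SE 0.06, adjusted p = 0.117), and Tcf21 had 324 and 355 CPM against 298 and 320 CPM (-0.14, SE 0.06, adjusted p = 0.266). The median of the list was 0.12, with 4 positive and 2 negative values. For an unadjusted p under 0.05, the share of all tested genes was 16.5%.

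Genes of like profile were sought with the median of the markers' centred log2 CPM, which was -0.03 and 0.00030 in Myh10+/+ lungs and 0.02 and -0.02 in Myh10-/- lungs. Among 13950 other genes whose mean count was 50 or more, the 5 nearest to it over the 4 lungs by root mean square distance were Glt8d1, Cdk2ap1, Snx27, Cog3 and Slc4a2, each within 0.01 on the log2 scale. Because most markers differed little between genotypes and their signs were mixed, this median lies near 0 in every lung. The 5 are therefore genes of almost equal level in all lungs. Distances of the markers themselves ran from 0.03 for Lrrn4 to 0.32 for Msln and 0.38 for Muc16, and 13707 of the other genes were nearer to the median profile than Msln was.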

How the data were processed

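RNA of whole left lobes from 2 Myh10+/+ and 2 Myh10-/- embryos was sequenced as stranded mRNA libraries with single-end reads, and genotypes were taken from the labels. The authors used Reaper for trimming, STAR 2.4.0a for alignment to GRCm38 and counted reads per Ensembl gene with featureCounts 1.5.1, excluding reads on more than 1 gene or region. The deposited values are raw counts per gene and lung, without normalization. Reads from gene copies too alike to tell apart are thus missing from the counts.

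The counts were tested with edgeR 4.0.16 in R 4.3.3 (TMM, glmQLFit, glmQLFTest), keeping the 18763 genes whose mean count was 5 or more, with Benjamini-Hochberg adjustment over all of them. All 8 markers passed this minimum. Standard errors and 95% intervals come from the same fit, and RPKM are CPM per kilobase of merged exons. There were 2 lungs per genotype, with 19116971 to 32055306 counts per lung. Whether the number of lungs or the depth limits the precision more was not worked out for each marker. Sampling noise alone did not account for the spread between replicate lungs (chi-square divided by its degrees of freedom, 7.47 for Myh10+/+ and 12.6 for Myh10-/-). The lungs of each genotype differed in sex, and sex-linked genes such as Xist were not left out of these figures. Both therefore include the difference between the sexes, and how much of them it makes up was not worked out. The labels do not give litters, and same-numbered lungs were not shown to be pairs.

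The markers and the lists were chosen with earlier results of these data known. Named are all 8 markers, the genes of each list past an adjusted p of 0.05, the 2 with the highest CPM where fewer than 2 passed, lists of 4 genes or fewer whole, 5 genes of like profile, and checks. Of these, 1 gene is not reported here. The alternatives were DESeq2 1.42.0, other scalings and filters, robust fits, a replicate block, leaving out the sex and mitochondrial chromosomes, a threshold of 0.1 and leaving out each lung. The test was checked on simulated counts. Promoter sequences are from RefSeq.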

Additional observations from a re-analysis of the deposited data

How the results depend on the processing

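The fall of Msln kept its sign under all 13 alternatives and passed an adjusted p of 0.05 in 7 of the 9 that used all 4 lungs. DESeq2 gave an adjusted p to 4 of the 8 markers (not to Wt1, Lrrn4, Muc16 and Bnc1) and to 7 of the 12 further mesothelial genes, and 0 of either passed (1 and 2 at an unadjusted p under 0.05), and with robust estimation 0 markers passed; the cause was not tested. Over all genes, 474 passed with robust estimation, 1162 with no filter on low counts, 710 with the replicate block and 696 at a threshold of 0.1, against 308 in the test reported. With no filter 4 of the relatives and 1 of the epicardial and mesenchymal factors passed, and with the replicate block 1 of these factors did. Same-numbered lungs were of opposite sex, so sex-linked genes had to deviate in opposite directions between them. The correlation of their deviations was -0.201 over all tested genes, -0.743 over genes with 250 or more counts and -0.0272 without chromosomes X and Y. Values that include these chromosomes therefore cannot show whether the lungs were pairs. Without them no value was worked out for genes with 250 or more counts alone, so -0.743 has no counterpart. No pairing was read from the value without them either, and a number shared by 2 lungs was not taken as a pairing. The replicate block called 710 genes, including all 308, and 1 of the 8 markers. Blocking by crossed numbers, which put lungs of the same sex together and was chosen after seeing the data, called 415 genes.

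Leaving out each lung in turn, where the lone lung of a genotype was assumed to vary like the others, gave 1 to 2 markers past the threshold, 1 to 2 relatives, 0 to 2 epicardial and mesenchymal factors, 2 to 7 cardiac genes and 191 to 1826 genes in all, with the median of the markers between -0.0182 and 0.0608. The highest of these totals came without Myh10-/- lung 2 and the lowest without Myh10+/+ lung 2. Log2 fold changes of Lrrn4 then ran from -0.0346 to 0.0707, negative without Myh10+/+ lung 1 or Myh10-/- lung 1 (-0.00802), and those of Bnc1 from -0.0766 to 0.228, negative without Myh10+/+ lung 2 or Myh10-/- lung 1 (-0.0496), none of them past the test. Pdpn did not pass without Myh10+/+ lung 1 (adjusted p = 0.0544). Among the markers Muc16 had the fewest reads, 23 to 61 per lung.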
